A study of Homo sapiens with 9 samples.

Results

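The glycolysis enzymes described here are 10 genes, HK1, HK2, GPI, PFKL, ALDOA, GAPDH, PGK1, ENO1, PKM and LDHA, taken by symbol from the 22587 genes of an RNA-seq table of HepG2 cells. All 10 had a row in the table. HepG2 is an established human line of liver tumor cells, and the labels call it tumor cells of the liver. The cells were grown in high-glucose DMEM with fetal bovine serum. There were 3 groups of 3 libraries. The Gln added group is labelled as normal medium with a GlutaMAX supplement, a stabilised glutamine dipeptide, and the other groups as glutamine deprivation for 12 h or for 24 h. The treatment protocol, unlike these labels, places GlutaMAX in the glutamine-free medium. The labels give no time for the Gln added group, so hours in culture and hours without Gln cannot be told apart. They also do not say that replicates were separate cultures, so p-values measure the spread between these libraries, which may be technical.

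Glycolysis breaks glucose down to pyruvate in the cytosol and yields ATP and NADH, and lactate dehydrogenase then reduces pyruvate to lactate and returns NAD+ to the pathway. Hexokinase, phosphofructokinase and pyruvate kinase catalyse its strongly one-way steps and are the usual points of control, whereas the remaining enzymes work close to equilibrium and also serve gluconeogenesis. Hepatocytes rely on the liver pyruvate kinase PKLR, and liver tumors typically express HK2 and PKM. Glutamine is the other main carbon source of many cultured tumor cells, entering the tricarboxylic acid cycle as glutamate.

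Levels are FPKM, the fragments of a gene scaled by its length in kilobases and by the size of its library. The libraries held between 29621270 and 36261546 fragments on genes, as recovered from the steps of the FPKM values. All 10 markers of hepatocyte-like cells checked were above 0.5 FPKM in the mean, and the 6 markers of stroma and endothelium were all below it. Of the 4 leukocyte markers, PTPRC and CD3E had no row, and CD68 and LYZ were present. The summed level of the hepatocyte-like markers itself ranged from 10110 to 10165 FPKM in Gln added cells, while the libraries lay between 8736 and 9034 after 12 h and between 8780 and 9314 after 24 h, and its part in the results was not tested. The leukocyte sum ranged from 767 to 787 FPKM in Gln added cells, from 552 to 592 after 12 h and from 758 to 806 after 24 h.

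Most of the pathway was lower after Gln deprivation, while its entry enzyme was higher. At 12 h, 7 of the 9 genes that passed a filter of 0.5 FPKM fell, and HK2 rose. At 24 h the same 7 genes, GPI, PFKL, GAPDH, PGK1, ENO1, PKM and LDHA, were lower than in Gln added cells, and HK2 was still higher. ALDOA passed the filter and was called at neither time. HK1 stayed below the filter and was not tested. Genes were called at an adjusted p under 0.05 in limma on log2(FPKM + 0.1), adjusted over the 11880 genes tested.

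These counts stand against a broad response. Of all genes tested, 60.2% were called at 12 h, 31% as lower and 29.1% as higher. At 24 h, 64.7% were called, 31.7% as lower and 33% as higher. The median log2 fold change of the 9 tested glycolysis genes was -0.49 at 12 h and -0.53 at 24 h, beside -0.02 and 0.01 over all genes tested. The libraries of the deprived and the Gln added cells did not overlap for 8 of the 9 genes, at 12 h as at 24 h, and this held for 67.2% and 69.9% of all genes tested, 34.4% and 34.1% being lower. Both comparisons use the same 3 Gln added libraries. In bulk RNA, fewer cells and less RNA per cell cannot be told apart, and FPKM show only the share of a gene in its library.

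**Figure D1:**
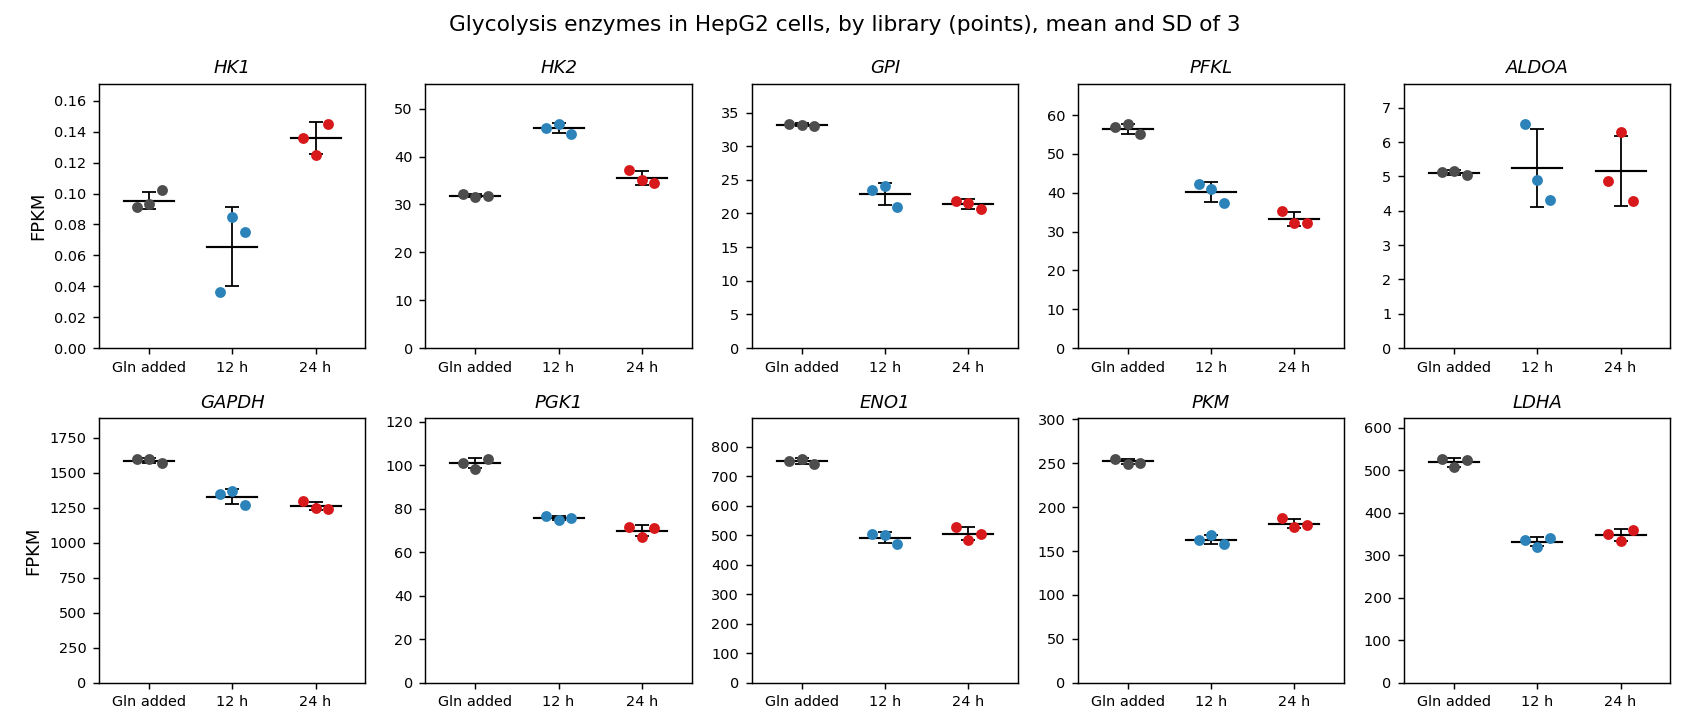
FPKM of the 10 glycolysis genes in each library (points) with the mean and SD of 3 libraries (lines and bars), for Gln added, 12 h and 24 h of Gln deprivation. The axes start at 0 and differ in height. HK2 rises from a mean of 31.8 to 45.9 FPKM at 12 h, the points of GPI, PFKL, GAPDH, PGK1, ENO1, PKM and LDHA in Gln added cells all lie above those of the deprived cells, and the groups of ALDOA overlap.

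The sum of the 10 genes ranged from 3308 to 3360 FPKM in Gln added cells, from 2423 to 2550 after 12 h and from 2407 to 2532 after 24 h. The deprived libraries were all below the Gln added ones, with a mean sum of 3337 ± 26.6 FPKM in Gln added cells, 2507 ± 72.6 at 12 h and 2462 ± 63.8 at 24 h (SD, n = 3). GAPDH was the largest part of this sum in each group. As a share of all fragments the 10 genes took 0.854% ± 0.00603 in Gln added cells, 0.63% ± 0.0179 at 12 h and 0.619% ± 0.0173 at 24 h (SD, n = 3).

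The genes spanned a wide range of levels. With Gln added the order was GAPDH, ENO1, LDHA, PKM, PGK1, PFKL, GPI, HK2, ALDOA and HK1, and the libraries of no neighbouring pair overlapped. At 12 h HK2 stood above PFKL and GPI, again with no overlap between neighbours. At 24 h HK2 was still above GPI, but its libraries, from 34.4 to 37.1 FPKM, overlapped with those of PFKL, from 32.1 to 35.3. This order rests on the gene lengths used in the FPKM, which were solved from the values and ran from 1731 bases for GAPDH to 11043 for GPI. They differ from the summed exons of GENCODE by unequal factors, with 4035 against 8926 bases for PFKL, 3356 against 8572 for PKM and 2501 against 6026 for LDHA, but 11043 against 10680 for GPI and 5859 against 5918 for HK2. Under other lengths the order of PFKL, GPI and HK2 and the isozyme shares could differ, while the ratio of the FPKM of 1 gene between groups would not.

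Because several members moved together and HK2 moved the other way, the bases just upstream of 3 of their transcription starts are shown, for HK2, LDHA and ENO1. The sequences are RefSeq promoters on GRCh38.p14 and hold the 250 bases before the start, 5′ to 3′ on the strand of the gene. Capitals mark ACGTG, the core of the element bound by hypoxia-inducible factors, and GGGCGG, the GC box bound by SP1-type factors, on either strand, where they read CACGT and CCGCCC. HK2 is on the plus strand at chr2:74833877-74834126, LDHA on the plus strand at chr11:18394313-18394562 and ENO1 on the minus strand at chr1:8878687-8878936.
HK2: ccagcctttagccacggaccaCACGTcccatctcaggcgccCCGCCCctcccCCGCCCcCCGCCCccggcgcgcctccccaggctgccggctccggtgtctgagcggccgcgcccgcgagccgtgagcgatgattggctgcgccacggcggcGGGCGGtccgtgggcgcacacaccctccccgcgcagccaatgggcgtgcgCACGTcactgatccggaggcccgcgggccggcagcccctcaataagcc
LDHA: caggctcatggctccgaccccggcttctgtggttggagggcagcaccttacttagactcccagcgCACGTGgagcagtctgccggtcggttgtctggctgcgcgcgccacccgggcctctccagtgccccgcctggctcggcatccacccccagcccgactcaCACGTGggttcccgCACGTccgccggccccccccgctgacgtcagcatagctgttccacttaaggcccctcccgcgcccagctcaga
ENO1: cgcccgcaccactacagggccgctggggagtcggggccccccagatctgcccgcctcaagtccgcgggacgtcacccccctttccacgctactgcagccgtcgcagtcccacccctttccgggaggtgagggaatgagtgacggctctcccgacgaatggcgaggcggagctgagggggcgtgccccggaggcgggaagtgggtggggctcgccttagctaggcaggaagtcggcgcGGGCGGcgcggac

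The window of LDHA held 5 matches to ACGTG, 4 of them from 2 copies of CACGTG, the E-box, which contains ACGTG on both strands. The HK2 window held 2 matches to ACGTG and 4 GC boxes, and the ENO1 window held 1 GC box and no ACGTG. Over windows of 250 bases before to 50 after a start, ACGTG was found for 6 of the 10 glycolysis genes (HK2, GPI, ALDOA, GAPDH, PGK1 and LDHA) and for 24.9% of the 27305 genes with a RefSeq window. CACGTG was found for 4 of the 10 (HK2, ALDOA, GAPDH and LDHA) and for 8.77% of genes, and the GC box for 9 of the 10, all but GPI, and for 48.3% of genes. Several of these genes have more than 1 start, with 20 windows in all, so a gene with many windows had more chances of a match. HK2, which rose, had both ACGTG and the GC box. Of the genes that fell, GPI, GAPDH, PGK1 and LDHA had ACGTG, while PFKL, ENO1 and PKM did not. All of those that fell except GPI had the GC box. LDHA had it only in the window of another start, 1788 bases from the one shown. A match is a description, not a binding site.

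Hexokinases commit glucose to the cell by phosphorylating it. HK2, the isozyme bound to mitochondria in many tumors, lies at 74834127-74893359 on the plus strand of chromosome 2 (GRCh38, GENCODE), with no other gene over its exons. Its level was 32.1, 31.5 and 31.8 FPKM in Gln added cells, 46.0, 46.8 and 44.8 FPKM at 12 h, and 37.1, 35.1 and 34.4 FPKM at 24 h. All 3 libraries at 12 h lay above those at 24 h, which in turn lay above those in Gln added cells. The mean was 44.2% higher at 12 h (limma log2 fold change 0.53, SE 0.0377, adjusted p 8.44e-07) and 11.6% higher at 24 h (0.16, SE 0.0377, adjusted p 0.00369). From 12 h to 24 h it fell by 22.6% (log2 fold change -0.37, SE 0.0377, adjusted p 0.000101).

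HK1, the hexokinase of most non-liver tissues, was barely detected. It had 18 to 20 fragments in a library in Gln added cells, 6 to 17 at 12 h and 23 to 28 at 24 h, or 0.0954 ± 0.00559, 0.0656 ± 0.0255 and 0.136 ± 0.0101 FPKM (SD, n = 3). The 24 h libraries were above all others. In a limma fit without the filter the 24 h libraries were above the 12 h ones by 0.52 on the log2 scale (adjusted p 0.0418), while neither time was called against Gln added (-0.25 with adjusted p 0.19 at 12 h, 0.27 with adjusted p 0.148 at 24 h). The pseudocount of 0.1 FPKM is as large as these levels and shrinks their fold changes.

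HKDC1, a hexokinase domain protein known from liver tumors, was the other abundant hexokinase. It measured 21.7, 20.5 and 21.3 FPKM in Gln added cells, 30.2, 30.3 and 28.5 FPKM at 12 h, and 33.6, 30.3 and 32.0 FPKM at 24 h. Both times were above Gln added in every library (log2 fold change 0.49, adjusted p 7.4e-06, and 0.59, adjusted p 1.16e-06, limma), and the change from 12 h to 24 h was not called (0.11, adjusted p 0.134). HK3 took at most 0.0127% of the summed hexokinase FPKM in any library.

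The summed FPKM of the hexokinase genes was 53.1 ± 0.905 in Gln added cells, 75.6 ± 1.99 at 12 h and 67.6 ± 2.79 at 24 h (SD, n = 3). HK2 made up 60.0% ± 0.465 of it in Gln added cells, 60.7% ± 0.366 at 12 h and 52.5% ± 0.936 at 24 h (SD, n = 3). At 24 h its share was below that of every library of the other groups (two-sided exact permutation p 0.1, the smallest that 3 libraries against 3 can give). With 18 shares of isozymes tested, the lowest Benjamini-Hochberg adjusted p was 0.18.

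**Figure D2:**
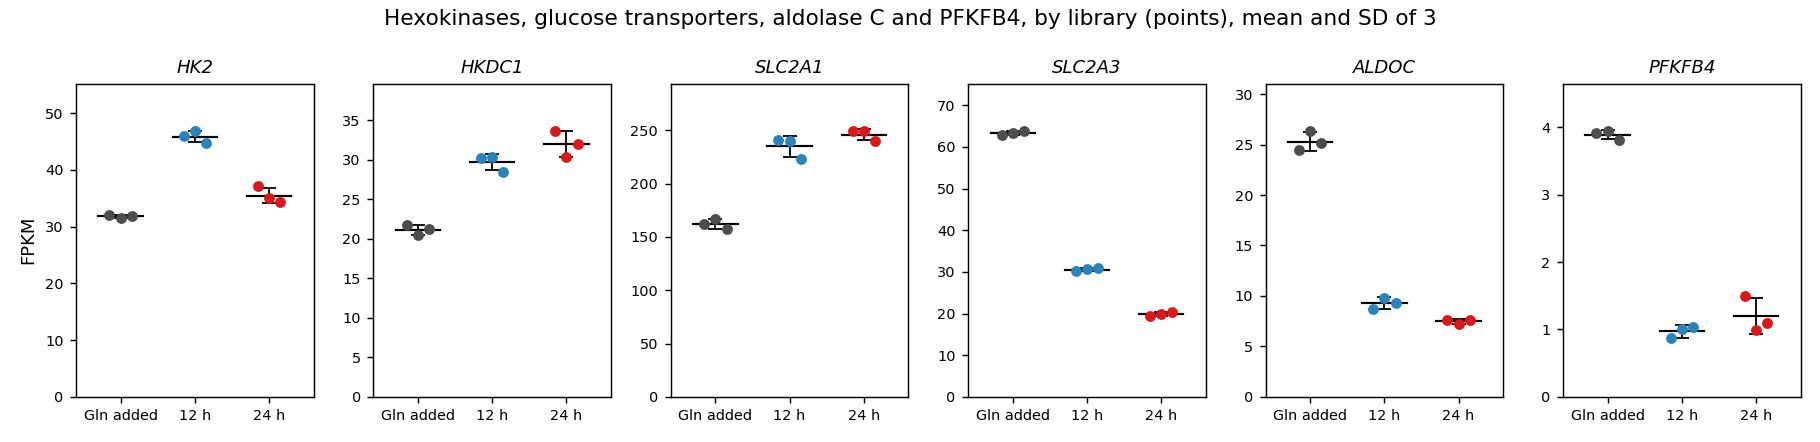
FPKM of the hexokinases HK2 and HKDC1, the glucose transporters SLC2A1 and SLC2A3, the aldolase ALDOC and the fructose bisphosphate regulator PFKFB4 in each library (points), with the mean and SD of 3 libraries (lines and bars). HK2, HKDC1 and SLC2A1 are higher in every deprived library than in Gln added cells, and SLC2A3, ALDOC and PFKFB4 lower.

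GPI, glucose-6-phosphate isomerase, turns the product of hexokinase to fructose 6-phosphate. It lies at 34359480-34402413 on chromosome 19, and 5.07% of its exonic bases also belong to another gene on the same strand. Its level was 33.3, 33.2 and 33.0 FPKM in Gln added cells, 23.5, 24.1 and 21.0 FPKM at 12 h, and 21.9, 21.6 and 20.6 FPKM at 24 h. The deprived libraries lay well under the Gln added ones and overlapped with each other. GPI fell by 31.0% at 12 h (limma log2 fold change -0.54, SE 0.0518, adjusted p 8.13e-06) and fell by 35.6% at 24 h (-0.63, adjusted p 1.61e-06). The change from 12 h to 24 h was -0.10 (adjusted p 0.22) and was called when replicate 3 of the 12 h group was left out (-0.16, adjusted p 0.0261).

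PFKL, the liver form of phosphofructokinase and the main control point of the pathway, had the largest fall of the 9 tested genes at 24 h. It lies at 44300051-44327376 on chromosome 21. Its level was 56.8, 57.7 and 55.2 FPKM in Gln added cells, 42.2, 40.9 and 37.4 FPKM at 12 h, and 35.3, 32.2 and 32.1 FPKM at 24 h. The 3 groups formed separate steps with no overlap. PFKL fell by 29.0% at 12 h (limma log2 fold change -0.49, SE 0.0529, adjusted p 1.71e-05) and fell by 41.3% at 24 h (-0.77, adjusted p 4.25e-07). The further drop from 12 h to 24 h was also called (-0.27, adjusted p 0.00498).

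PFKL accounted for 94.5% ± 0.386 of the summed phosphofructokinase FPKM in Gln added cells, 93.0% ± 0.165 at 12 h and 93.1% ± 0.121 at 24 h (SD, n = 3). The platelet form PFKP was lower at 24 h (log2 fold change -0.48, adjusted p 0.000164, limma) and not called at 12 h (-0.13, adjusted p 0.158). The muscle form PFKM had a mean of 0.228 to 0.293 FPKM in the 3 groups and was not tested.

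ALDOA, an aldolase that splits fructose 1,6-bisphosphate, measured 5.14, 5.16 and 5.03 FPKM in Gln added cells, 6.53, 4.91 and 4.32 FPKM at 12 h, and 4.88, 6.30 and 4.30 FPKM at 24 h. The Gln added libraries were close together and fell inside the wide range of both deprived groups. Its log2 fold change was 0.02 at 12 h (95% interval -0.32 to 0.35, adjusted p 0.927, limma), and the 24 h interval ran from -0.34 to 0.33 (adjusted p 0.985), so changes of the size seen in several other members are outside it, but smaller ones are not.

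The ALDOA value is uncertain. ALDOA lies at 30064164-30070457 on chromosome 16, where 42.8% of its exonic bases are shared with another protein-coding gene on the same strand and 13.6% with a long non-coding RNA on the opposite strand. RefSeq places LOC112694756 at 30053151-30070414 over nearly the whole of ALDOA, and the table listed that gene with 8 to 43 fragments in a library. ALDOA had 323 to 451 fragments in a library. How fragments that fit both genes were counted is not given in the sources used here, and its part in the low level was not tested.

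ALDOC, the brain aldolase, which liver tumor cells can also express, was the more abundant form in this table. It fell from 24.5, 26.3 and 25.2 FPKM in Gln added cells to 8.69, 9.84 and 9.33 FPKM at 12 h, and to 7.65, 7.17 and 7.59 FPKM at 24 h. No groups overlapped. The log2 fold change was -1.44 at 12 h (adjusted p 7.92e-09, limma) and -1.75 at 24 h (adjusted p 1.34e-09), larger in size than that of any of the 10 genes, and the step from 12 h to 24 h was called too (-0.31, adjusted p 0.003). The share of ALDOA in the summed aldolase FPKM was 16.5% ± 0.459 in Gln added cells, 35.0% ± 5.84 at 12 h and 39.5% ± 5.39 at 24 h (SD, n = 3), with the limit on the ALDOA value given above.

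GAPDH oxidises glyceraldehyde 3-phosphate and makes the NADH of the pathway, and it is often used as a constant reference in expression assays. It lies at 6534512-6538374 on chromosome 12, with 17.6% of its exonic bases under a long non-coding RNA on the opposite strand. Its level was 1596, 1599 and 1565 FPKM in Gln added cells, 1347, 1369 and 1270 FPKM at 12 h, and 1294, 1250 and 1239 FPKM at 24 h. All deprived libraries lay below all Gln added ones. GAPDH fell by 16.2% at 12 h (limma log2 fold change -0.26, SE 0.0372, adjusted p 0.000161) and fell by 20.5% at 24 h (-0.33, adjusted p 1.88e-05), the smallest changes among the 7 genes that fell. The genome holds many processed copies of GAPDH and of other glycolysis genes. The table had 0 rows of such copies of the 10 genes, and how reads that fit a gene and its copy were treated is not given in the sources used here.

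PGK1 makes the first ATP of the pathway from 1,3-bisphosphoglycerate. It lies at 77910739-78129295 on the X chromosome in the GENCODE annotation. Its level was 101, 98.3 and 103 FPKM in Gln added cells, 76.7, 74.7 and 75.6 FPKM at 12 h, and 71.6, 67.0 and 71.2 FPKM at 24 h. The 3 groups did not overlap. PGK1 fell by 24.9% at 12 h (limma log2 fold change -0.41, SE 0.0364, adjusted p 4.08e-06) and fell by 30.6% at 24 h (-0.53, adjusted p 4.41e-07). The difference between 12 h and 24 h lay just outside the threshold (-0.11, adjusted p 0.0503) and was inside it under 5 of the 19 alternatives, among them the fit without replicate 1 of the 24 h group (adjusted p 0.0373).

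ENO1, the enolase that makes phosphoenolpyruvate, lies at 8861000-8879190 on the minus strand of chromosome 1. Its level was 753, 760 and 742 FPKM in Gln added cells, 505, 501 and 470 FPKM at 12 h, and 529, 485 and 505 FPKM at 24 h. The deprived groups overlapped with each other and stood far below Gln added. ENO1 fell by 34.6% at 12 h (limma log2 fold change -0.61, SE 0.041, adjusted p 5.22e-07) and fell by 32.7% at 24 h (-0.57, adjusted p 5.89e-07). It took between 94.8% and 95.5% of the summed enolase FPKM in each of the 9 libraries. The neuronal form ENO2 and the muscle form ENO3 were lower at both times as well, ENO2 by -0.49 and -0.29 and ENO3 by -0.69 and -0.75 on the log2 scale.

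PKM, the pyruvate kinase of growing cells, lies at 72199029-72231819 on the minus strand of chromosome 15. Its level was 255, 249 and 250 FPKM in Gln added cells, 163, 168 and 158 FPKM at 12 h, and 187, 177 and 180 FPKM at 24 h. The 24 h libraries stood between the other groups, with no overlap. PKM fell by 35.1% at 12 h (limma log2 fold change -0.62, SE 0.0347, adjusted p 1.34e-07) and fell by 27.9% at 24 h (-0.47, adjusted p 7.08e-07). It was higher at 24 h than at 12 h (0.15, adjusted p 0.012). The values are per gene and do not separate its M1 and M2 splice forms. PKLR, the liver and red cell form, had a mean of 8.56 FPKM in Gln added cells, 5.16 at 12 h and 4.84 at 24 h, and PKM made up 96.7%, 96.9% and 97.4% of their sum.

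LDHA reduces pyruvate to lactate and lies at 18394560-18408425 on chromosome 11. Its level was 527, 508 and 523 FPKM in Gln added cells, 336, 320 and 341 FPKM at 12 h, and 351, 333 and 359 FPKM at 24 h. Every deprived library was far below every Gln added one, and the 2 times overlapped. LDHA fell by 36.0% at 12 h (limma log2 fold change -0.64, SE 0.0391, adjusted p 2.45e-07), the largest fall of the 9 tested genes at that time, and fell by 33.0% at 24 h (-0.58, adjusted p 3.76e-07). LDHB, the form that favours the return reaction, had 0 to 2 fragments in a library, at most 0.0308 FPKM, and LDHC had no row.

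**Figure D3:**
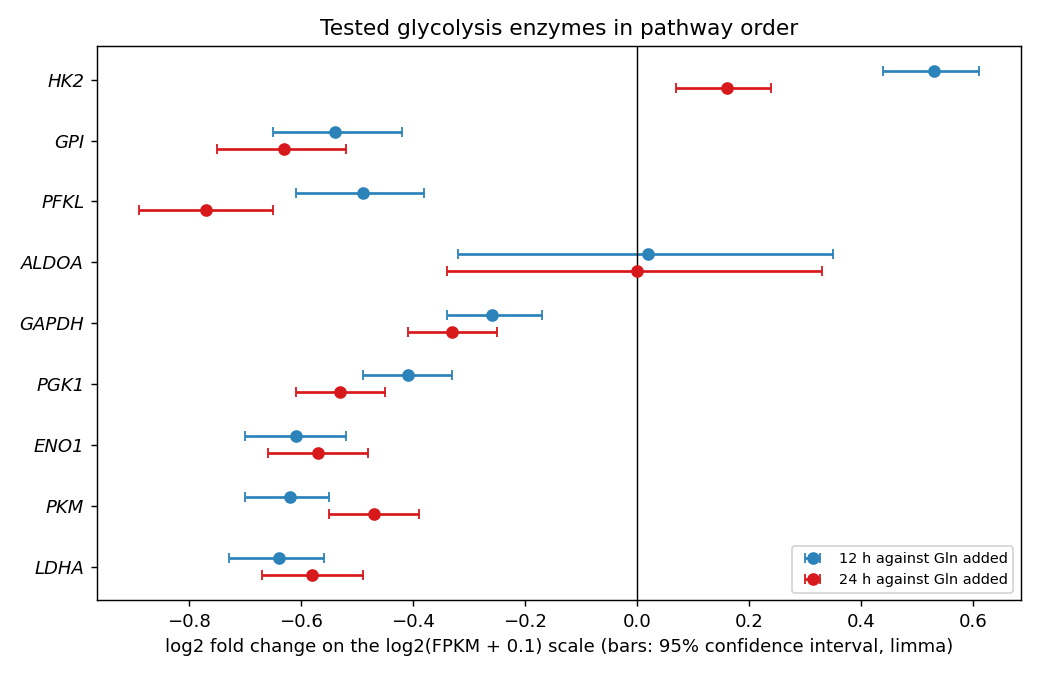
Log2 fold change of the 9 tested glycolysis genes in pathway order at 12 h and at 24 h against the same Gln added libraries, on the log2(FPKM + 0.1) scale, with 95% confidence intervals from limma (bars). HK2 lies to the right of 0 at both times, 7 genes lie to the left, and the intervals of ALDOA span 0.

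Between 12 h and 24 h of Gln deprivation, 3 of the 9 tested genes were called, where 20.1% of all genes tested were called, 10.5% as lower and 9.57% as higher. HK2 and PFKL were lower at 24 h and PKM was higher. With PGK1, the libraries of 4 of the 9 genes did not overlap between the times, 3 of them being lower, as for 34.4% of all genes tested, 16.9% being lower. For the other 5, GPI, ALDOA, GAPDH, ENO1 and LDHA, the 12 h and 24 h libraries overlapped, with log2 fold changes from -0.10 to 0.07. The median over the 9 genes was -0.08 on the log2 scale, beside 0.02 over all genes tested.

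Divided by GAPDH in the same library, the picture of the other members changed in size. HK2 was 2.01% of the GAPDH level in Gln added cells, 3.45% after 12 h and 2.81% after 24 h. LDHA was 32.7% of GAPDH in Gln added cells, 25.0% at 12 h and 27.6% at 24 h, a relative change of -23.5% and -15.8%. PKM changed by -22.5% and -9.3% relative to GAPDH, and PFKL by -15.3% and -26.2%. ALDOA changed by 22.4% and 27.1% with no overlap between the groups, although its own FPKM overlapped. A ratio to GAPDH shows unequal change of both genes, and GAPDH itself had fallen.

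The steps and isozymes of glycolysis outside the 10 genes moved mostly the same way. Of 20 listed, 18 had a row and 11 were tested. At 12 h, 8 were lower and 1 was higher, and at 24 h 9 were lower and 1 was higher. The median log2 fold change was -0.49 and -0.48. Over all genes tested, 31% were lower at 12 h and 31.7% at 24 h, with medians of -0.02 and 0.01. HKDC1 was the gene that was higher at both times. TPI1, triose phosphate isomerase, fell from a mean of 283 FPKM to 220 at 12 h and 203 at 24 h. PGAM1, phosphoglycerate mutase, fell by 44.5% at 12 h (limma log2 fold change -0.85, adjusted p 2.45e-07) and fell by 50.6% at 24 h (-1.02, adjusted p 4.07e-08). PGAM4, named after its values were seen and lower at both times too, is a near copy of PGAM1, and how shared reads were split between them is not given in the sources used here.

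Enzymes that set the level of fructose 2,6-bisphosphate, the activator of phosphofructokinase, and GCKR, a regulator of hexokinase activity in liver, did not move as 1 group. Of 6 tested, 2 were higher and 3 lower at 12 h, beside 29.1% and 31% of all genes tested. At 24 h the numbers were 3 and 2, beside 33% and 31.7%. The median log2 fold change was -0.16 and -0.06 at these times. PFKFB4, a bifunctional kinase and phosphatase, measured 3.92, 3.94 and 3.81 FPKM in Gln added cells, 0.867, 1.01 and 1.04 FPKM at 12 h, and 1.5, 0.999 and 1.09 FPKM at 24 h. It fell by 75.0% at 12 h (log2 fold change -1.90, SE 0.134, adjusted p 7.61e-07, limma) and fell by 69.2% at 24 h (-1.64, adjusted p 1.55e-06). The kinases PFKFB1, PFKFB2 and PFKFB3, named after their values were seen, were low, with group means from 0.368 to 1.76 FPKM. PFKFB1 was lower at both times, PFKFB3 at 12 h, and PFKFB2 was higher at both times. GCKR rose from 13.5 FPKM to 22.9 at 12 h and 23.5 at 24 h. TIGAR, a phosphatase that lowers fructose 2,6-bisphosphate, was higher at 24 h (0.39, adjusted p 0.00152) and not called at 12 h (0.18, adjusted p 0.0804). The 12 h value was called with FPKM rescaled to the same total (0.21, adjusted p 0.0459) and without replicate 2 of the 12 h group (0.26, adjusted p 0.0138), and it was 0.11 without replicate 3 of that group.

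Glucose transporters split. SLC2A1, the widespread GLUT1, had the highest mean over the 9 libraries of the 13 transport genes listed, though BSG, which escorts lactate transporters to the membrane, stood above it in Gln added cells with 188, 186 and 182 FPKM. SLC2A1 measured 162, 167 and 157 FPKM in Gln added cells, 241, 240 and 223 FPKM at 12 h, and 249, 249 and 240 FPKM at 24 h. It rose by 45.2% and 52.2% (limma log2 fold change 0.54, adjusted p 1.06e-06, and 0.61, adjusted p 2.82e-07). SLC2A3, the high-affinity GLUT3, went the other way, with 62.9, 63.3 and 63.7 FPKM in Gln added cells, 30.2, 30.6 and 30.9 FPKM at 12 h, and from 19.3 to 20.4 FPKM in the 3 libraries at 24 h. It fell by 51.8% at 12 h (-1.05, adjusted p 2.31e-09) and fell by 68.6% at 24 h (-1.66, adjusted p 1.01e-10), and was lower at 24 h than at 12 h (-0.62, adjusted p 3.12e-06). SLC2A14 is a near copy of SLC2A3, so reads may be shared between them.

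SLC2A8, a transporter of inner membranes, rose at 12 h (log2 fold change 0.68, adjusted p 3.28e-07, limma) and was closer to Gln added at 24 h (0.18, adjusted p 0.00344). Of the 10 transport genes tested, 3 were higher and 4 lower at 12 h, beside 29.1% and 31% of all genes tested. At 24 h the numbers were 3 and 5, beside 33% and 31.7%. The median log2 fold change of the 10 genes was -0.07 and -0.12. Named after their values were seen, SLC2A2, the GLUT2 of hepatocytes, and SLC2A4 were lower at both times, SLC2A10 was lower at 12 h, SLC2A14 was higher at 12 h and lower at 24 h, BSG was lower and the lactate transporter SLC16A1 higher at 24 h. The lactate exporter SLC16A3, named after its values were seen, had a mean of 130 FPKM in Gln added cells, 123 at 12 h and 122 at 24 h and was not called at either time (adjusted p 0.104 and 0.0514).

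The list for the entry of pyruvate to mitochondria holds its carrier, pyruvate dehydrogenase with its kinases and phosphatases, and pyruvate carboxylase. Of 13 tested, 10 were lower and none higher at 12 h, where 31% of all genes tested were lower. At 24 h, 11 were lower and none higher, beside 31.7% of all genes, and the median log2 fold change was -0.46 and -0.42. Named after their values were seen, the phosphatase PDP1 (0.09 and 0.10) and the carboxylase PC (-0.06 at both times) were called at neither time, and the dehydrogenase subunit PDHA1 was not called at 12 h (-0.08, adjusted p 0.0769, limma). MPC1 and MPC2, the subunits of the mitochondrial pyruvate carrier, were lower at 12 h by -0.76 and -0.36 and at 24 h by -0.79 and -0.61 on the log2 scale. PDHB, a subunit of pyruvate dehydrogenase and the most abundant of the list, fell from a mean of 54.0 FPKM to 44.5 at 12 h and was 49.8 at 24 h. Its call at 24 h (-0.12, adjusted p 0.0311) was lost under 7 of the 19 alternatives: with FPKM rescaled to the same total (-0.07, adjusted p 0.188), without a trend, and without any of the 3 Gln added libraries or replicate 2 or 3 of the 24 h group (-0.09 to -0.12, adjusted p 0.0681 to 0.102). PDK3, a kinase that inhibits pyruvate dehydrogenase, fell as well (-0.66, adjusted p 0.00103, and -0.45, adjusted p 0.00992, limma), so enzymes of opposite action were lower together.

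**Figure D4:**
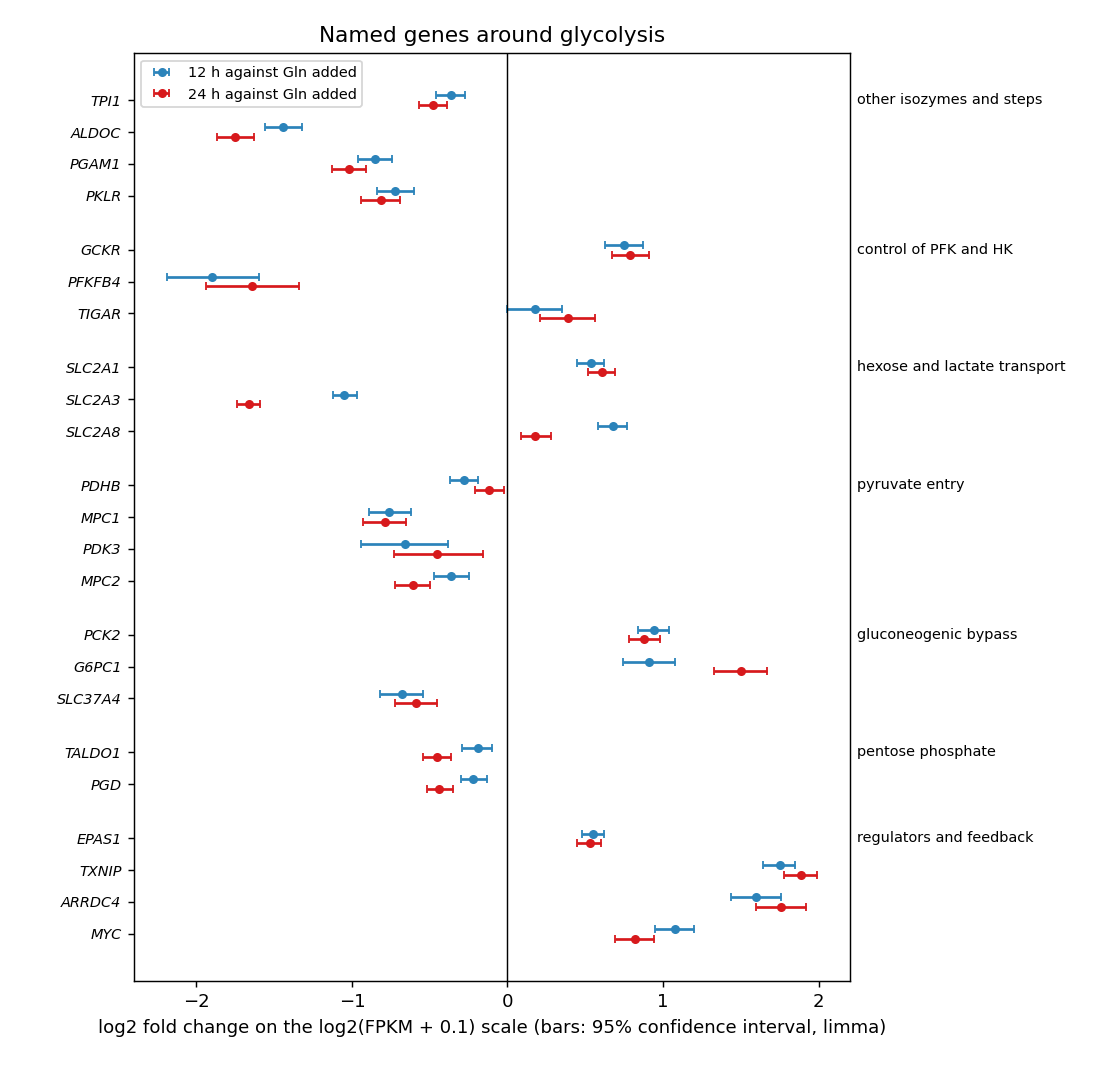
Log2 fold change of 23 genes around glycolysis at 12 h and at 24 h against the same Gln added libraries, on the log2(FPKM + 0.1) scale, with 95% confidence intervals from limma (bars), grouped by role. The genes shown of pyruvate entry and of the pentose phosphate pathway lie left of 0, the regulators EPAS1, TXNIP, ARRDC4 and MYC right of 0, and transporters on both sides.

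Enzymes that bypass glycolysis in the direction of glucose were divided. Of 7 listed, 4 were tested. FBP1 (0.498 FPKM), FBP2 (0.0827) and PCK1 (0.0546), named after their values were seen, had means over the 9 libraries below the filter. Of the 4 tested, 2 were higher and 2 lower at each time. Over all genes tested, 29.1% were higher and 31% lower at 12 h, and 33% and 31.7% at 24 h. The median log2 fold change of the 4 genes was 0.20 and 0.18. PCK2, the mitochondrial phosphoenolpyruvate carboxykinase, rose from a mean of 47.8 FPKM to 91.8 at 12 h and 88.1 at 24 h (0.94, adjusted p 4.05e-08, and 0.88, adjusted p 4.2e-08, limma). G6PC1, the glucose-6-phosphatase of liver, rose from 1.74 FPKM to 3.36 and 5.11, and was higher at 24 h than at 12 h (0.59, adjusted p 0.000444). SLC37A4, which carries glucose 6-phosphate to that enzyme, was lower at 12 h and 24 h (-0.68 and -0.59), and so was G6PC3, the widespread glucose-6-phosphatase, named after its values were seen (-0.51 and -0.52).

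The pentose phosphate pathway draws glucose 6-phosphate off glycolysis. Of its 8 genes tested, 4 were lower, none was higher and 4 were not called at 12 h. Over all genes tested, 31% were lower and 29.1% higher at that time. At 24 h, 5 were lower, 1 was higher and 2 were not called, where 31.7% of all genes tested were lower and 33% higher. The median log2 fold change of the 8 genes was -0.15 and -0.22, beside -0.02 and 0.01 over all genes tested. PGD and TALDO1 fell less at 12 h (-0.22 and -0.19 on the log2 scale) than at 24 h (-0.44 and -0.45). Both were lower at 24 h than at 12 h (adjusted p 0.00249 and 0.0021, limma). H6PD, an enzyme of this pathway in the endoplasmic reticulum, was higher at 24 h (0.28, adjusted p 0.000312) and is named after its values were seen.

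The list of transcription factors and feedback genes known to act on glycolytic genes held 10. At 12 h, 8 were higher, 1 was lower and 1 was not called. The numbers and the 8 higher genes were the same at 24 h. Over all genes tested, 29.1% were higher at 12 h and 33% at 24 h. The median log2 fold change of the 10 was 0.34 and 0.40. MYC, which activates many glycolytic genes, rose from a mean of 30.6 FPKM to 64.6 at 12 h and 54.1 at 24 h (1.08, adjusted p 8.48e-08, and 0.82, adjusted p 4.17e-07, limma), and was lower at 24 h than at 12 h (-0.26, adjusted p 0.00932). EPAS1, the hypoxia-inducible factor HIF2A, rose by 46.5% and 44.4%. TXNIP and ARRDC4, which restrain glucose uptake and are induced by MondoA and ChREBP when glucose 6-phosphate builds up, had the largest rises, TXNIP from 10.7 FPKM to 36.0 and 39.7 and ARRDC4 from 1.38 FPKM to 4.37 and 4.88. The mRNAs of these factors thus rose while 7 of the 10 glycolysis genes fell.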

How the data were processed

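RNA-seq of 9 HepG2 libraries was used, with 3 each for Gln added, 12 h and 24 h of Gln deprivation, grouped by the labels. The values deposited by the authors are FPKM, with no further scaling stated. According to the methods, reads were aligned to GRCh38 with STAR. The submitters' processing notes name GRCh38, HTSeq and R 3.2.0, and the annotation is not given in the sources used here. The labels name another library kit than the methods, so whether strand was kept is not settled. Whole fragments were recovered from the FPKM steps for 100% of 22587 genes (tolerance 0.02), with sums of 99.99% of the solved totals. In a simulation of this recovery, 9 of 9 totals and 99.42% of genes were recovered.

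FPKM are not counts, so limma 3.58.1 in R 4.3.3 (lmFit, eBayes with a trend) was fitted on log2(FPKM + 0.1) to the 11880 genes whose mean reached 0.5 FPKM. The 3 groups shared 1 fit, and p-values were adjusted by Benjamini-Hochberg over all these genes. A fold change on this scale understates that of genes near 0.1 FPKM. Isozyme shares were compared by two-sided exact permutation tests. All replicate pairs differed by more than sampling noise. Positions and exon overlaps come from GENCODE on GRCh38. Alternatives were other pseudocounts (0.01 and 1), no filter, a filter of 1 FPKM, 2 other scalings, only the groups compared, a replicate block, no trend, voom on the recovered fragments, and each library left out.

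The genes and lists were chosen with earlier results of these data known. Genes were named by a rule: the 10 members, the isozymes of their reactions, and in each list the most abundant gene and up to 3 genes with the largest called change, provided that their mean reached 1 FPKM and the groups did not overlap. Some genes that the rule selects are left out of the text. Plots were made in Python 3.11.15 with matplotlib 3.10.9.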

Additional observations from a re-analysis of the deposited data

Results flagged for a closer look

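For 3 of the 9 tested glycolysis genes the difference from Gln added cells was not the same at 12 h and at 24 h. This was called by limma's test of the difference itself (adjusted over all 11880 genes), which called 20.1% of all genes tested. The log2 change at 24 h minus that at 12 h was -0.37 for HK2 (adjusted p 0.000101), -0.27 for PFKL (adjusted p 0.00498) and 0.15 for PKM (adjusted p 0.012), and in each case the 3 libraries of the groups did not overlap. HK2 thus lost most of its rise by 24 h, PFKL fell further and PKM regained part of its fall. These calls held under all 19 alternatives.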

How the results depend on the processing

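Of 2106 alternative values of 126 results, 2064 were scored as the same, and no called change reversed its direction. A fold change was the same if it stayed on its side of the threshold. The sign of an uncalled one could differ, as for ALDOA at 12 h (0.02, and -0.15 without replicate 1 of that group). Numbers of genes called, isozyme shares and sums were scored by how far they moved. At 12 h and at 24 h, 8 glycolysis genes were called under every alternative run, each library left out included. Between 12 h and 24 h the count was 3 or 4. PGK1 became the fourth with a mean of at least 1 FPKM (adjusted p 0.0482), median-ratio scaling (0.0258), voom on recovered fragments (0.0366) and without replicate 1 of the 24 h group (0.0373). The fourth was HK1 in the limma fit without the filter (adjusted p 0.0418). It was GPI in the fit without replicate 3 of the 12 h group (adjusted p 0.0261). As a share of the summed FPKM, the sum of the 10 genes changed by -23.8% at 24 h in place of -26.2%. The gap was larger than the spread of the sum between replicates. The summed FPKM of all genes, by which the share divides, ranged from 384543 to 387589 in Gln added cells. At 24 h it ranged from 371462 to 374523, and why it was lower was not tested.

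Whether the replicate numbers pair the libraries is not settled, since correlations within groups of 3 libraries cannot exclude a shared batch. The deviations of same-numbered libraries from their group means correlated between -0.136 and 0.283, and not every library correlated best with its own number. With the replicate number as a block, 8, 8 and 4 genes were called at 12 h, at 24 h and between them, PGK1 being the added one (adjusted p 0.0285). The block also brought TIGAR at 12 h inside the threshold (0.18, adjusted p 0.0472). The 2 planned count models were not run. Few fragments limit HK1 and LDHB.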

Other observations

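Over the 9 libraries, genes outside the pathway followed these patterns closely, measured by the root mean square difference of log2(FPKM + 0.1) after centring each gene on its mean. The genes most like PFKL were C20orf27 (0.0352), TUBB, a beta-tubulin (0.0404), and NUDT14 (0.0418). Those most like the mean of the 9 tested glycolysis genes were COX6B1, a subunit of cytochrome c oxidase (0.026), PSMD3, a subunit of the proteasome (0.0276), and SNHG14 (0.028). The genes most like HK2, a search added after its values were seen, were MACROH2A2 (0.0364), SNHG1 (0.0417) and SLC7A5, a transporter of large neutral amino acids (0.0457). The mean of SLC7A5 was 83.7 FPKM in Gln added cells, 121 after 12 h and 97.0 after 24 h. These are descriptions over 9 libraries that share their groups, with no test.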
